A study of Homo sapiens with 8 samples.

Results

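The cytosolic ribosomal protein genes encode the protein part of the ribosome that works in the cytoplasm. Members were taken from the GENCODE release 44 annotation as protein-coding genes on an autosome or on chromosome X whose symbol had the form RPL or RPS followed by a number and in some cases a letter, together with RPLP0, RPLP1, RPLP2 and RPSA. This gave 84 genes of the 60675 in the count tables, 52 of the large subunit (60S) and 32 of the small subunit (40S). Among them were 7 paralogues, which are near copies of another member (RPL3L, RPL7L1, RPL10L, RPL22L1, RPL26L1, RPL39L and RPS27L). A gene was tested when its counts were high enough in at least 1 group, and 82 members were. RPL10L, known from the testis, had 0 reads in every library, and RPL3L, known from striated muscle, had 12 reads in all 8 libraries together, so neither was tested.

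RNA was sequenced from the established human pancreatic cancer line Panc10.05 and from a derivative that had become resistant to indisulam under long culture with the drug. Indisulam is a sulfonamide that brings the splicing factor RBM39 to an E3 ubiquitin ligase and so causes the loss of RBM39 protein. The 8 libraries fell into 4 groups of 2. Parental untreated cells received no drug, and parental indisulam cells received 2 µM for 18 h. Resistant indisulam cells were kept on 2 µM of the drug without a break, and resistant untreated cells had been taken off it for about a week. Time on the drug therefore differed between the lines. Sample titles, which were followed, give Panc10.05, but A549 appears in the growth notes. The study calls its libraries technical replicates, so p-values measure the spread between these libraries, and the resistant cells are a single derivative.

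A ribosome is built from a large and a small subunit, each holding 1 copy of nearly every ribosomal protein around ribosomal RNA. Cells make these proteins in matched amounts. Most of their messenger RNAs begin with a C followed by an unbroken run of pyrimidines, called a 5′ TOP (terminal oligopyrimidine) motif, through which LARP1 and the kinase mTORC1 regulate their translation and stability. Growing tumour cells devote much of their transcription and translation to ribosomes.

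The start site is the sequence feature that most members share, so a few are printed. In the RefSeq promoter table, which covers 67 members, 47 members (70.1%) had a start site with C followed by at least 4 C or T, read on the transcribed strand from the start itself. The same search found 970 of 15345 protein-coding genes (6.32%). Of the members with a listed start, 46 of 62 standard genes and 1 of 5 paralogues had it. In the lines that follow each stretch runs 5′ to 3′ over 15 bases before the start and 15 from it (GRCh38.p14), and capitals mark the run of pyrimidines where it met the rule. RPS6 (chr9:19380222-19380251, minus strand) and RPL12 (chr9:127451392-127451421, minus strand) are shown as members with the run. RPL22 (chr1:6199581-6199610, minus strand) and its paralogue RPL22L1 (chr3:170870181-170870210, minus strand) are shown as the pair in which both had it. RPS27 (chr1:153990747-153990776, plus strand) and RPS27L (chr15:63157463-63157492, minus strand) are shown as a pair that differed. RPL26L1 (chr5:172958714-172958743, plus strand), RPS28 (chr19:8321481-8321510, plus strand) and RPL3 (chr22:39319609-39319638, minus strand) are shown because their expression stood out below and none met the rule.
RPS6: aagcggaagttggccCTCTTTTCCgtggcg
RPL12: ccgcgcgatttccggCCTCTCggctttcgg
RPL22: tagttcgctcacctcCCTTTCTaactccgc
RPL22L1: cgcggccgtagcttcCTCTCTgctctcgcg
RPS27: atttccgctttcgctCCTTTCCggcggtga
RPS27L: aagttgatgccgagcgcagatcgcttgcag
RPL26L1: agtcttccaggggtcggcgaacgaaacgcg
RPS28: tccccgaagcacgtgactcctctccgccag
RPL3: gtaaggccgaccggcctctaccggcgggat
RPL3 began with C and only 3 more pyrimidines, and RPS28 and both paralogues printed without capitals did not begin with C at the listed start. A different start used in these cells would not be seen here.

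Each library had between 65266253 and 108002436 reads on genes, so counting error was small for nearly all members. The mean chi-square between the 2 libraries of a group ranged from 2.04 to 5.87 per gene over all genes and from 11.7 to 63.8 per member, so no pair of libraries agreed within sampling noise. All 7 pancreatic ductal epithelial markers were present at 1 CPM or more in every group. Of 15 markers of other cell types, 1 (COL1A1) reached 1 CPM and 7 or 8 were at 0. Levels are given in CPM, the count of a gene relative to the library size after TMM (trimmed mean of M values) normalization, as edgeR gives it.

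Members took a larger share of the sequenced messenger RNA in parental than in resistant cells. The share on indisulam was higher than off it in parental cells and lower in resistant cells. The 84 genes held 6.76% and 6.69% of gene reads in the parental untreated libraries and 6.98% and 7.20% in parental indisulam. In the resistant line they held 5.83% and 5.64% off the drug and 5.18% and 5.15% on it. Libraries of different groups did not overlap. Both subunits followed this order. The 60S members fell from 4.14% ± 0.03 (SD, n = 2) in parental untreated to 3.19% ± 0.02 in resistant indisulam, and the 40S members from 2.58% ± 0.02 to 1.98% ± 0.0039. Single shares were not tested, since 2 libraries against 2 are too few for an exact test. In bulk RNA, fewer cells of a type and less RNA per cell cannot be told apart, and shares of a fixed number of reads say nothing about the amount of RNA per cell. Reads marked as duplicates, which were left out of the counts, made up 14.1% to 18.4% of all reads, and were 16.5% ± 1.35, 17.9% ± 0.68, 14.98% ± 1.30 and 14.6% ± 0.49 in the 4 groups in the order above. Their part in the shares was not tested.

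**Figure D1:**
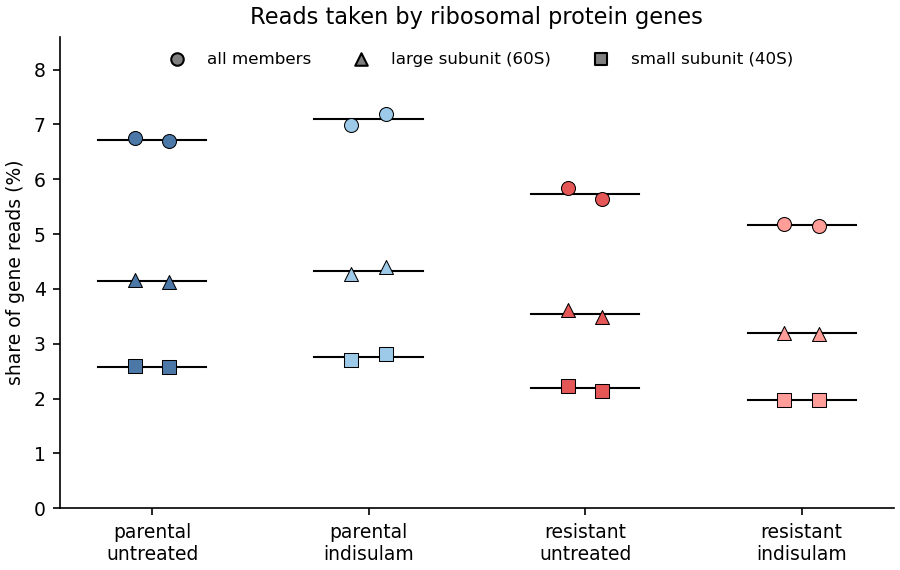
Share of gene reads (%) held by the ribosomal protein genes in each of the 8 libraries, for all members and for each subunit. Points are libraries and lines are the means of 2 libraries. The 2 parental indisulam libraries lie highest (6.98% and 7.20% for all members) and the 2 resistant indisulam libraries lowest (5.18% and 5.15%).

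Indisulam raised most ribosomal protein genes of parental cells by a small amount. In edgeR's quasi-likelihood test with Benjamini-Hochberg adjustment at 0.05, 68 of 82 tested members were higher and 5 lower, whereas 31.6% of all 16661 tested genes were higher and 26.6% lower. The median log2 fold change was 0.15 over the members and 0.01 over all genes. The changes were narrow in range, with the middle 50% of members between 0.11 and 0.19. Only 3 members passed 0.5 in size, RPL36A and RPS10 among them, which are described below with the genes that overlap another gene.

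RPL26L1, a paralogue of RPL26, had the largest rise. Its level was 42.5 and 41.1 CPM in the untreated and 53.1 and 56.1 CPM in the treated parental libraries, and 50.3 and 45.9 CPM in the untreated and 47.4 and 46.2 CPM in the treated resistant libraries. The log2 fold change in parental cells was 0.39 ± 0.04 (adjusted p = 6.1e-08). RPL5, a partner of 5S ribosomal RNA, was next among members, at 1731 and 1704, then 1986 and 2085, then 1667 and 1597, then 1491 and 1509 CPM in the same order of groups. Its rise was 0.25 ± 0.03 (adjusted p = 4e-07), and the treated parental libraries did not overlap the untreated ones. RPL22, an RNA-binding protein of the large subunit that can be removed without loss of ribosome function, rose by 0.24 ± 0.03 (adjusted p = 8.6e-07).

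RPL3, which lies close to the peptidyl transferase centre, went the other way. RPL3 was at 1905 and 1906 CPM in the untreated and 1689 and 1758 CPM in the treated parental libraries, and 1686 and 1607 CPM in the untreated and 1243 and 1219.8 CPM in the treated resistant libraries. Its log2 fold change in parental cells was -0.14 ± 0.03 (adjusted p = 0.00027). RPL10A had a smaller called fall (-0.07 ± 0.03, adjusted p = 0.044), which was lost under 10 alternatives. Without parental indisulam replicate 1 it was -0.06 (adjusted p = 0.21), and leaving out either parental untreated library also ended the call. After the length and GC correction it was -0.01 (adjusted p = 0.79). The members with no call were RPL12, RPL17, RPL22L1, RPL26, RPL39L, RPL7L1, RPLP0, RPLP1 and RPS21, with log2 fold changes between 0.00 and 0.16.

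Members also moved together between libraries of a group. Between the parental indisulam libraries, 73 of 82 members were higher in replicate 2, with a median log2 difference of 0.06. The median between the parental untreated libraries was -0.01. The same was not computed over all tested genes, so it is not shown to be particular to the members. Without parental indisulam replicate 2, 50 members were higher with a median of 0.11, and without replicate 1 of that group 63 were higher. With library totals alone in place of TMM, 50 were higher, and the median was 0.085 over the members and -0.05 over all genes.

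In resistant cells, continuous drug was compared with about a week off it, and most members were lower on the drug. Of the 82 tested members 72 were lower on indisulam and 2 were higher, against 25.8% lower and 24.9% higher of all tested genes. The median log2 fold change was -0.18 over the members and 0.01 over all genes. No member passed 0.5 in size. RPL3 had the largest fall (-0.42 ± 0.03, adjusted p = 6.9e-11), followed by RPL22 (-0.37 ± 0.03, adjusted p = 2.3e-09).

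RPS29, a small zinc-binding protein of the 40S subunit, came next. It was at 421 and 426 CPM in the untreated and 439 and 473 CPM in the treated parental libraries, and 471 and 443 CPM in the untreated and 352 and 356 CPM in the treated resistant libraries. The fall was -0.37 ± 0.03 on the log2 scale (adjusted p = 4.4e-08), and the treated resistant libraries lay below all 6 others. The members that rose were RPL39L and RPS10. The 8 members with no call included RPL17, RPL18, RPL26, RPL26L1, RPL36A, RPS15A and RPS27L. Between the resistant untreated libraries the members' median log2 difference was -0.06. There 70 of 82 were lower in replicate 2, a count not made over all tested genes. Without replicate 1 of that group the number lower on the drug was 66, and without replicate 2 it was 76.

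The responses of the lines differed for nearly every member. A response here is 18 h of drug against none in parental cells, and continuous drug against about a week off it in resistant cells. Line and drug schedule therefore cannot be told apart. The resistant response minus the parental response was below 0 and called for 75 of 82 members and above 0 for 4, whereas 27.5% and 22.7% of all tested genes were called in these directions. The median difference was -0.34 on the log2 scale over the members and 0.01 over all genes. Counted gene by gene, 64 members were called higher in parental and lower in resistant cells. Of all tested genes 31.6% were called higher in parental and 25.8% lower in resistant cells, but genes with both calls were not counted. The responses of the lines came from separate libraries. RPL22 had the largest difference among the members that fell, at -0.61 ± 0.05 (adjusted p = 4.1e-10). Its level was 90.0 and 91.3 CPM in the untreated and 106.6 and 107.5 CPM in the treated parental libraries, and 89.1 and 84.2 CPM in the untreated and 65.4 and 68.3 CPM in the treated resistant libraries. The order was parental indisulam, parental untreated, resistant untreated and resistant indisulam, and no libraries of different groups overlapped, although the difference between the untreated lines was not called (-0.06 ± 0.03, adjusted p = 0.094). Of the 82 members 69 had their group means in this order, and the same count was not made over all tested genes.

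RPS18, which lies in the head of the small subunit, was at 1656 and 1621 CPM in the untreated and 1839 and 2024 CPM in the treated parental libraries, and 1605 and 1521 CPM in the untreated and 1286 and 1290.0 CPM in the treated resistant libraries. Its difference in response was -0.52 ± 0.05 (adjusted p = 1.1e-06), and it was the member with the highest level per kilobase. RPL34, a protein of the large subunit, had a difference of -0.50 ± 0.06 (adjusted p = 3e-06). The 3 members with no call were RPL10A, RPL17 and RPL26. The scale mattered for the size of these values: with library totals alone the median over all genes was 0.125, in place of 0.010, and the members' median was -0.23, which still lay below it.

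**Figure D2:**
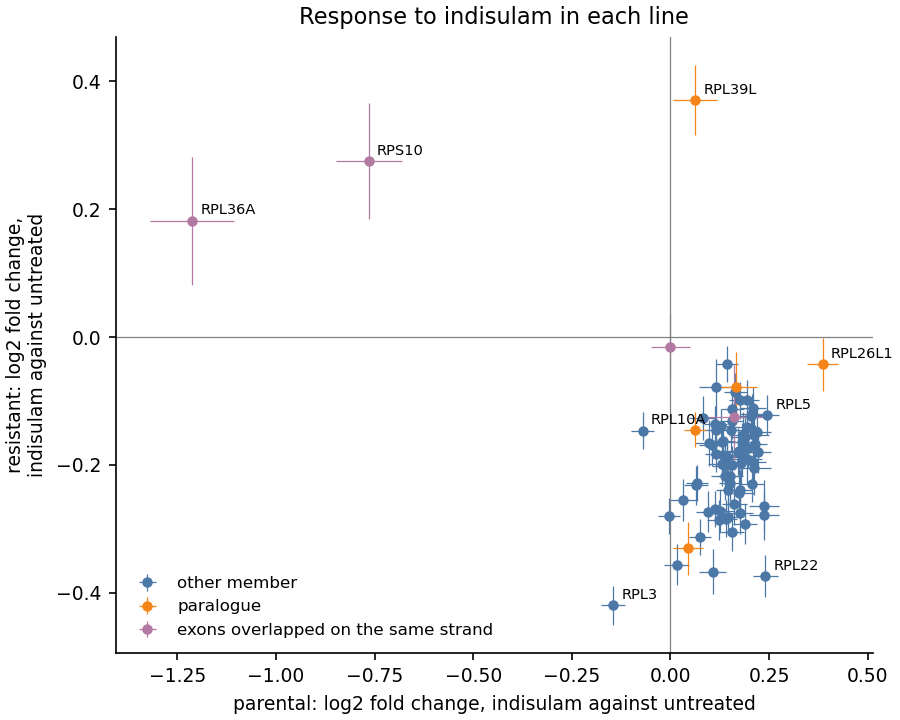
Log2 fold change of indisulam against untreated for the tested members reported here, in parental cells (horizontal) and resistant cells (vertical). Bars are standard errors, and colours mark paralogues and members whose exons are overlapped by another gene on the same strand. Most members lie above 0 in parental and below 0 in resistant cells, RPL39L lies above 0 in both, and RPL36A and RPS10 lie far to the left.

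Off the drug, resistant cells had lower levels of most ribosomal protein genes than parental cells. Of 82 members 58 were lower and 3 higher, against 29.9% lower and 30.3% higher of all tested genes. The median log2 fold change was -0.16 over the members and -0.02 over all genes. The falls were uneven, and 7 members passed 0.5 in size.

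RPS28 had the largest fall. RPS28 is a small protein of the 40S subunit at the exit of the messenger RNA channel, encoded by chr19:8321158-8323340 on the plus strand (GRCh38). Its level was 402 and 395 CPM in the untreated and 446 and 429 CPM in the treated parental libraries, and 215 and 223 CPM in the untreated and 198 and 193 CPM in the treated resistant libraries. The resistant libraries lay below every parental library, and the log2 fold change off the drug was -0.86 ± 0.03 (adjusted p = 9.5e-18). RPL12, a protein at the base of the stalk, was at 1099 and 1075, then 1075 and 1094, then 669 and 648, then 546 and 539 CPM in the same order of groups. The difference was -0.72 ± 0.03 (adjusted p = 1.6e-16). RPL36, a small protein of the 60S subunit, was at 487 and 468, then 503 and 503, then 311 and 318, then 254 and 253 CPM in the same order of groups. Its difference was -0.60 ± 0.03 (adjusted p = 4.1e-15). For each of these the parental and resistant libraries did not overlap.

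RPL26L1 (0.20 ± 0.04), RPL39L (0.20 ± 0.06) and RPS29 (0.11 ± 0.03) were the only members called higher in untreated resistant cells. The first and second are paralogues. Without resistant untreated replicate 1 the calls of RPS29 (0.06, adjusted p = 0.15) and RPL39L (0.16, adjusted p = 0.059) were lost. RPS29 also lost its call without parental untreated replicate 1 (0.10), and RPL39L without parental untreated replicate 2 (0.16). The 21 members with no call included RPL30 (0.00 ± 0.03), RPL39 (-0.06 ± 0.03) and RPS3 (-0.07 ± 0.03).

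The untreated fall in resistant cells was deeper in members of higher GC content. Across the 82 members the log2 fold change had a Pearson correlation of -0.36 and a Spearman correlation of -0.39 with the GC content of the transcript. These are genes of the same libraries and no test was made. In the 41 members of higher GC content 35 were lower, with a median of -0.19, and in the other 41 the count was 23 and the median -0.11. After a correction for length and GC content 53 members were lower and 7 higher. RPL30 (0.14), RPL39 (0.13) and RPL34 (0.08) were then called higher, so their direction off the drug depended on this correction. Between the lines on indisulam the same correlations were -0.17 and -0.13. The response to the drug had -0.04 and -0.38 in parental cells and 0.02 and 0.02 in resistant cells. For the difference in responses they were 0.04 and 0.28, so a rank trend with GC content was not limited to the untreated comparison. Leaving out resistant untreated replicate 2 gave 47 members lower, and leaving out replicate 1 gave 68.

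**Figure D3:**
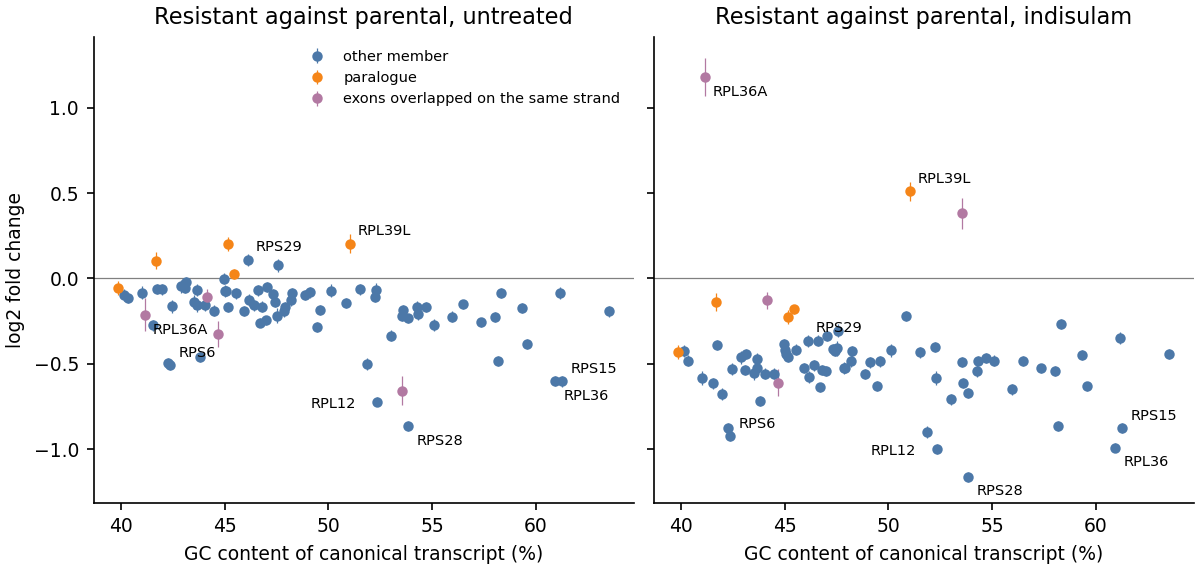
Log2 fold change of resistant against parental cells for the tested members reported here, untreated (left) and on indisulam (right), against the GC content of the canonical transcript (%). Bars are standard errors. Off the drug the middle 50% of members lie between -0.23 and -0.08 and RPS28 is lowest at -0.86, and on the drug the median lies at -0.48.

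On the drug the gap between the lines was wider. All 82 members were called, 78 lower and 4 higher in resistant cells, whereas 34.9% of all tested genes were lower and 34.6% higher. The median log2 fold change was -0.48 over the members and 0.00 over all genes, and 40 members passed 0.5 in size. This value is the sum of the untreated gap and the difference in responses, so it is not a separate observation. RPS28 (-1.16 ± 0.03), RPL12 (-1.0 ± 0.03) and RPL36 (-0.99 ± 0.03) again had the largest falls. The comparisons off and on the drug used separate libraries, and 56 members were lower in both. With 78 of 82 lower on the drug, most members lower off it had to be among them. The same count was not made over all tested genes. The members called higher included RPL39L and the overlapped genes RPL36A and RPS10.

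The epithelial markers also differed between the lines. Off the drug all 7 were called higher in the resistant line (30.3% of all tested genes). On the drug 6 were higher and 1 was lower (34.6% and 34.9% of all tested genes). The lower one, EPCAM, was at 458 and 470 CPM in parental indisulam and 425 and 439 CPM in resistant indisulam libraries. The summed level of the 7 markers came mostly from KRT8 and KRT18. In CPM of the library totals, without TMM, the sum ranged from 6233 to 6541 in parental and from 10763 to 12553 in resistant libraries. COL1A1, a fibroblast collagen, rose by 1.31 on the log2 scale in resistant cells on the drug, to 3.96 and 3.89 CPM. The summed level of the 15 markers of other cells, also without TMM, was 4.52 to 4.56 CPM there and 1.63 to 2.13 CPM elsewhere. Most of that sum was COL1A1, and the 2 other tested markers, VWF and CD68, were not called. The part of all these markers in the members' differences was not tested.

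The stalk proteins RPLP0, RPLP1 and RPLP2 recruit the GTPases that drive translation. RPLP0 was at 2215 and 2243 CPM in the untreated and 2200.1 and 2309 CPM in the treated parental libraries, and 1811 and 1723 CPM in the untreated and 1401 and 1359.7 CPM in the treated resistant libraries. Its difference between the parental groups was not called (0.02 ± 0.03, adjusted p = 0.69), and it fell in resistant cells on the drug (-0.36 ± 0.03, adjusted p = 2.3e-09). RPLP1 had log2 fold changes of 0.03 in parental (no call) and -0.26 in resistant cells. RPLP2 rose in parental cells (0.13) and fell in resistant cells (-0.14). On the drug all 3 were lower in the resistant line, with log2 differences of -0.71, -0.42 and -0.53.

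RPL5 and RPL11 form the 5S ribonucleoprotein with 5S ribosomal RNA, which binds MDM2 when it is not built into ribosomes. RPL11 was at 696 and 663 CPM in the untreated and 716 and 781 CPM in the treated parental libraries, and 634 and 612 CPM in the untreated and 533 and 539 CPM in the treated resistant libraries. It rose in parental cells (0.14 ± 0.04) and fell in resistant cells (-0.22 ± 0.04). The parental call was lost without parental indisulam replicate 2 (0.05, adjusted p = 0.25), without parental untreated replicate 2 (0.11), with library totals alone (0.07) and with only genes averaging 1 CPM or more (0.08). RPL5 did the same, at 0.25 and -0.12. Their differences in response were close (-0.37 ± 0.04 for RPL5 and -0.36 ± 0.05 for RPL11).

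RPL13 served in the study as the reference gene for quantitative PCR of RBM39 in A549 cells with RBM39 knocked down. That was another cell line and not an indisulam experiment, so the values below do not bear on that use. RPL13 was at 1323 and 1300.2 CPM in the untreated and 1409 and 1432 CPM in the treated parental libraries, and 1173 and 1161 CPM in the untreated and 1045 and 1013 CPM in the treated resistant libraries. It rose in parental cells (0.11 ± 0.03, adjusted p = 0.0013) and fell in resistant cells (-0.18 ± 0.03, adjusted p = 9.4e-06). The parental call was lost without parental indisulam replicate 2 (0.08, adjusted p = 0.069), with library totals alone (0.05, adjusted p = 0.12) and with only genes averaging 1 CPM or more (0.06). The gap between the lines was -0.17 ± 0.03 off the drug and -0.47 ± 0.03 on it (adjusted p = 5.4e-13). The treated resistant libraries lay below all 6 others.

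Among small-subunit proteins with known extra roles, RPS6 is the substrate of the S6 kinases. RPS6 was at 1836 and 1810.3 CPM in the untreated and 2014 and 2106 CPM in the treated parental libraries, and 1305 and 1260.1 CPM in the untreated and 1064 and 1108 CPM in the treated resistant libraries. It was lower in resistant cells, with log2 differences of -0.51 ± 0.03 off the drug and -0.92 ± 0.03 on it. RPSA, which also gives rise to a laminin receptor, had a line difference of -0.28 off and -0.63 on the drug. RPS27A, which is made as a fusion with ubiquitin, had -0.27 and -0.62. RPS3, which sits at the entry of the messenger RNA channel, had -0.07 off the drug (no call) and -0.42 on it.

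RPS25, which takes part in translation from some internal entry sites, RPS26, which lies at the exit of the messenger RNA channel, and RPS4X followed the main pattern. Their differences in response were -0.45, -0.29 and -0.37. In the large subunit, RPL38, which is needed for translation of some Hox messenger RNAs, had a difference in response of -0.35. RPL10A had log2 fold changes of -0.07 in parental cells, the call described above as lost under 10 alternatives, and -0.15 in resistant cells. Its difference in response was not called (-0.08 ± 0.04), but was called after the length and GC correction (-0.09, adjusted p = 0.022). RPL10, which joins the large subunit late in its assembly, had a difference of -0.37 ± 0.04.

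The calls of the 5 tested paralogues varied between the comparisons. In parental cells 2 were called higher on the drug (31.6% of all tested genes). In resistant cells 1 was higher and 2 were lower on it (24.9% and 25.8% of all tested genes). Off the drug 2 were higher and none lower in the resistant line (30.3% and 29.9% of all tested genes). On the drug 4 of 5 were lower in the resistant line (34.9% of all tested genes), with a median log2 fold change of -0.18. The difference in response was called below 0 for 4 of 5 (27.5% of all tested genes), with a median of -0.24. RPL39L was the other paralogue in both. The RPS27L calls in both were lost without parental indisulam replicate 2 (-0.05 and -0.16), without resistant indisulam replicate 2 (-0.12 and -0.21), with library totals alone (-0.05 and -0.13) and after the length and GC correction (-0.10 and -0.16). The other 77 tested members were mostly lower off the drug (58 of 77), so all 58 falls were in standard genes. With only 5 paralogues, no difference between the classes was tested. RPL39L, a paralogue of RPL39 known from the testis, was the clearest exception. RPL39L was at 10.6 and 9.99 CPM in the untreated and 10.4 and 11.1 CPM in the treated parental libraries, and 12.2 and 11.5 CPM in the untreated and 15.1 and 15.5 CPM in the treated resistant libraries. It rose on indisulam in resistant cells (0.37 ± 0.06, adjusted p = 5.4e-06), and the treated resistant libraries lay above all 6 others. RPL39, which lines the exit tunnel, was at 507 and 499.7, then 559 and 589, then 492 and 476, then 387 and 403 CPM in the same order of groups. RPL39 fell in the same comparison (-0.29 ± 0.03, adjusted p = 3.2e-08).

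RPL22L1, which can take the place of RPL22, was at 48.4 and 47.5 CPM in the untreated and 47.7 and 51.1 CPM in the treated parental libraries, and 46.4 and 45.7 CPM in the untreated and 35.1 and 38.0 CPM in the treated resistant libraries. It fell with RPL22 in resistant cells (-0.33 ± 0.04), whereas in parental cells RPL22 rose and RPL22L1 had 0.04 ± 0.04 with no call (adjusted p = 0.34). A difference between the genes of a pair was not tested. The libraries of RPL26L1 in the 3 other groups lay above those of parental untreated cells, and RPL26 is among the overlapped genes. RPL7L1, which works in assembly of the large subunit, had -0.14 on the log2 scale in resistant cells on the drug, beside -0.19 for RPL7. RPS27L, a p53 target in other cells, rose in parental cells (0.17 ± 0.05), where RPS27 rose too (0.16 ± 0.03). The RPS27L call was lost without parental indisulam replicate 2 (0.08, adjusted p = 0.29), without parental untreated replicate 2 (0.15), with library totals alone (0.10), with only genes averaging 1 CPM or more (0.11), with libraries thinned to the smallest (0.12) and after the length and GC correction (0.09). In resistant cells RPS27L had -0.08 ± 0.05 with no call and RPS27 fell (-0.31 ± 0.03).

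Per kilobase of transcript the paralogues were far below their partners in 3 pairs. The mean level over the 8 libraries was 16.5 CPM per kb for RPL39L and 1254 for RPL39, 2.77 for RPS27L and 1419 for RPS27, and 98.3 for RPL7L1 and 1671 for RPL7. In contrast, RPL22L1 reached 23.7 CPM per kb beside 42.6 for RPL22. These levels are per canonical transcript, and another transcript form would change them.

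**Figure D4:**
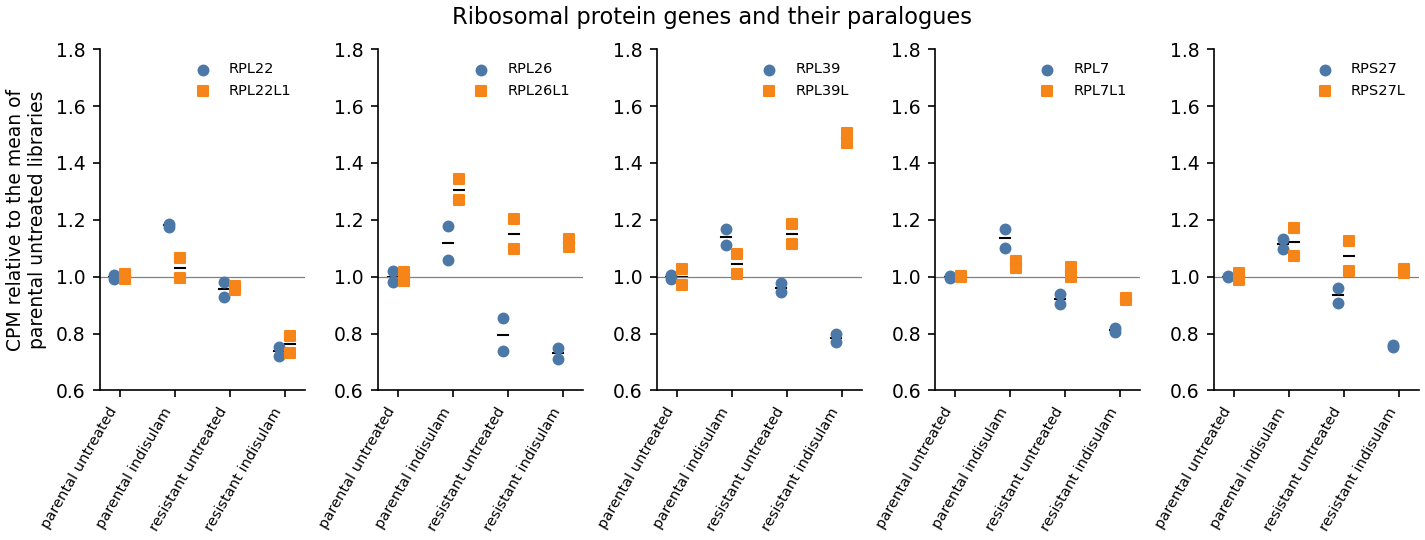
CPM of 5 members and their paralogues in each library, divided by the gene's mean in the 2 parental untreated libraries. Points are libraries, short lines are means of 2, and the vertical axis does not start at 0. In the resistant indisulam libraries RPL39L lies above all its other libraries while RPL39 lies below, and RPL22 and RPL22L1 both lie below.

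The level over all members spanned a wide range. The mean over the 8 libraries was 4.46 to 2515 CPM with a median of 659, and 71 members were above 100 CPM. Of the 100 genes with the most reads, 23 were members. Per kilobase RPS18 was highest (2924 CPM per kb), followed by RPL30 (2478) and RPL8 (2350.0), which lies next to the peptidyl transferase centre. RPL39L (16.5), RPL36A (12.03) and RPS27L (2.77) were lowest among the members of mean log2 CPM of at least 3.

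Members such as RPL17, RPL26, RPL36A and RPS10 share exons with another gene annotated on the same strand. The overlapping gene covered 43.8% of the exon bases of RPL36A (RPL36A-HNRNPH2), 65.3% of RPL26, 84.0% of RPS10 (RPS10-NUDT3) and 96.9% of RPL17 (RPL17-C18orf32), and each overlapping gene had 0 reads. Reads that fall in both genes may be set aside as ambiguous, and these members had low counts, so their values are uncertain. RPL36A was at 10.9 and 11.5 CPM in the untreated and 4.92 and 4.73 CPM in the treated parental libraries, and 8.40 and 10.99 CPM in the untreated and 10.6 and 11.2 CPM in the treated resistant libraries. Its libraries in parental indisulam lay below all others, with a log2 fold change of -1.21 ± 0.11 (adjusted p = 2.8e-06). RPS10, singled out after its values were seen, was at 5.66 and 6.27, then 3.49 and 3.53, then 3.58 and 4.004, then 4.49 and 4.64 CPM in the same order of groups. RPS10 fell in parental cells too (-0.76 ± 0.08, adjusted p = 5.4e-08) and rose in resistant cells (0.27 ± 0.09, adjusted p = 0.014).

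Pseudogenes bore on RPL36A as well. Reads on processed copies named after it made up 59.5% of the reads of gene and copies together, and with these added its difference between the lines on the drug turned from 1.18 to -0.08. The same share was 19.5% for RPS10, 16.6% for RPL17 and 0.33% to 0.39% for all members together in a library. Without the overlapped genes (5 in all), a count made after their values were seen, 68 members were higher and 2 lower in parental cells, and 72 were lower and 1 higher in resistant cells.

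The calls were spread over groups of members that the rule did not use. Of all tested genes 31.6% were higher in parental and 25.8% lower in resistant cells on indisulam. In the untreated resistant line 29.9% of all tested genes were lower. In the 60S subunit 39 of 50 tested members were higher in parental and 44 lower in resistant cells on indisulam, and in the 40S subunit 29 and 28 of 32 were. Of the 47 members with the pyrimidine start, 39 rose in parental and 43 fell in resistant cells, with medians of 0.15 and -0.20, and of the 19 tested members with another start 15 rose and 16 fell, with medians of 0.16 and -0.15. No difference between these groups was tested. The 28 members that carry snoRNA genes in their introns, 60 snoRNA genes in all, had 25 rises in parental and 27 falls in resistant cells. Chromosome 19 carried 12 members, of which 12 rose in parental cells and 11 were lower in the untreated resistant line, and chromosome X carried 4.

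Genes that work beside the cytosolic ribosome had changes in the same direction on indisulam. Of all tested genes 31.6% rose and 26.6% fell in parental cells, and 24.9% rose and 25.8% fell in resistant cells. On the drug 34.9% of all tested genes were lower in the resistant line. Among proteins of the ribosome and of translation outside the rule, such as elongation factors, 12 of 14 rose in parental cells, 9 fell in resistant cells, and 13 were lower on the drug in the resistant line. EEF2, the translocase of elongation, had the largest line differences of this list (-0.83 ± 0.03 off and -0.85 ± 0.03 on the drug). EIF4B rose by 0.35 ± 0.03 in parental cells. Of 77 tested mitochondrial ribosomal protein genes 48 rose and 5 fell in parental cells, and 2 rose and 49 fell in resistant cells.

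In untreated cells 30.3% of all tested genes were higher and 29.9% lower in the resistant line, as given above. The translation proteins had 3 higher and 7 lower of 14 in untreated resistant cells. The mitochondrial ribosomal protein genes had 24 higher (31.2%) and 23 lower (29.9%) in untreated resistant cells, close to the shares over all genes, with a median log2 fold change of 0.02, where the cytosolic members had 3 and 58 and a median of -0.16. Of the 60S assembly factors, which build the large subunit in the nucleolus, 12 of 30 (40%) were higher and 4 (13.3%) lower, and of the 40S assembly factors 18 of 38 (47.4%) were higher and 7 (18.4%) lower. No test compared these lists with the members. On the drug 20 of 30 and 26 of 38 assembly factors were lower in the resistant line (34.9% of all tested genes). NOP14 (-0.61 ± 0.03) and RPF2 (-0.61 ± 0.03) were among them, whereas DIMT1, a methyltransferase of 18S ribosomal RNA, was higher (0.21 ± 0.04). The proteins of snoRNA particles, which guide changes of ribosomal RNA bases, fell in resistant cells on the drug in 6 of 8 cases (NHP2, -0.36 ± 0.03). In 1 case (NOP10, 0.13 ± 0.03) there was a rise. Of all tested genes 25.8% fell and 24.9% rose in that comparison.

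**Figure D5:**
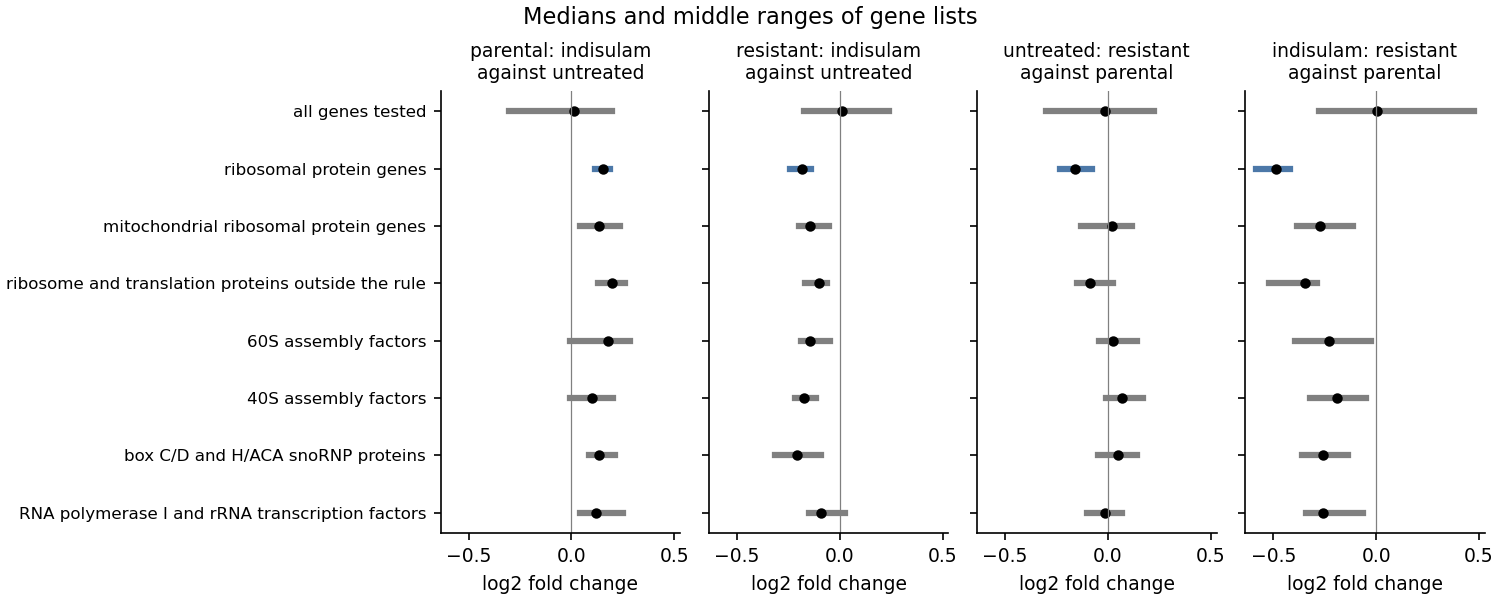
Log2 fold changes of gene lists in 4 comparisons. Points are medians over the tested genes of a list and bars span the middle 50% of its genes. The cytosolic ribosomal protein genes lie at 0.15, -0.18, -0.16 and -0.48 from left to right, and in the untreated comparison of the lines the mitochondrial ribosomal protein genes lie at 0.02.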

How the data were processed

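The authors deposited raw read counts per gene, 1 table for each of 8 libraries of polyadenylated RNA. Reads had been aligned to GRCh38 with HISAT2 2.2.1, and the submitters' processing notes also name Picard and HTSeq. The annotation release and strand setting of the counting are not given in the sources used here. Duplicate, ambiguous and low-quality alignments were listed apart, which can lower the counts of members that share sequence with pseudogenes or other genes. Of 60675 identifiers 60419 matched GENCODE release 44, which gave symbols, positions and lengths.

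Counts were filtered with filterByExpr (16661 genes), scaled with TMM and fitted with edgeR 4.0.16 (R 4.3.3) as 4 group means over all 8 libraries, with the robust quasi-likelihood test (4 residual degrees of freedom) and Benjamini-Hochberg adjustment over all tested genes. Standard errors are the log2 fold change divided by the square root of F. The fit was tested on simulated data, in which more of its calls were false than the adjusted threshold names, so calls just past it are less sure. Alternatives covered scaling, filters, DESeq2 1.42.0, a length and GC correction (mgcv 1.9.3), pseudogene reads, a replicate block and leaving out each library.

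The members and lists were chosen with earlier results of these data known. Named members were the paralogue pairs, genes of known role, the 3 largest called rises and falls in each of 5 comparisons and the highest and lowest levels per kilobase. The values of 1 member that this rule named are not reported or plotted here, though counts and medians over the members include it.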

Additional observations from a re-analysis of the deposited data

Results flagged for a closer look

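By the edgeR quasi-likelihood test of the difference itself, the comparison of indisulam against untreated differed between the lines for 79 of the 82 tested ribosomal protein genes. The parental comparison was 18 h of drug against none, and the resistant one was continuous drug against about a week off it. Line and drug schedule therefore cannot be told apart. Of these 75 were below 0 and 4 above 0. Of all 16661 tested genes 27.5% were called below 0 and 22.7% above 0. All values here are the resistant minus the parental log2 fold change. Among the named members the difference was -0.61 for RPL22, -0.52 for RPS18, -0.50 for RPL34, -0.48 for RPL39, -0.47 for RPS29, -0.46 for RPS27, -0.45 for RPS25, -0.43 for RPL26L1 and -0.42 for RPS6.

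It was -0.39 for RPL36, -0.38 for RPL30 and RPL22L1, and -0.37 for RPLP0, RPS4X, RPL10, RPL7 and RPL5. It was -0.36 for RPL11, -0.35 for RPL38 and RPSA, -0.34 for RPS3 and RPS27A, and -0.30 for RPL13 and RPS28. The values were smaller for RPLP1 and RPS26 (-0.29), RPL12 (-0.28), RPL3 and RPLP2 (-0.27), RPL8 (-0.25), RPS27L (-0.24) and RPL7L1 (-0.21). The call for RPS27L was lost without parental indisulam replicate 2 (-0.16), resistant untreated replicate 1 (-0.14) or resistant indisulam replicate 2 (-0.21), with library totals alone (-0.13), with only genes averaging 1 CPM or more (-0.16) and after the length and GC correction (-0.16).

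The difference had the opposite sign for RPL39L (0.31) and RPL36A (1.39). RPL36A shares exons with another gene on the same strand, and the part of that overlap in its value was not tested. Reads on processed copies named after RPL36A made up 59.5% of the reads of gene and copies together. As given above, adding them turned the sign of its difference between the lines on the drug.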

How the results depend on the processing

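No alternative turned the direction of the members' median or moved a count in a main direction by over 1.5 times: 50 to 72 were higher in parental cells, 66 to 76 lower in resistant cells, and 47 to 71 lower off and 76 to 78 lower on the drug in the resistant line. With library totals alone, the medians were 0.085 (parental), -0.13 (resistant), -0.40 (lines on the drug) and -0.23 (difference of responses), and with a mean CPM of at least 1 they were 0.10, -0.41 (lines on the drug) and -0.26 (difference). Leaving out 1 library gave medians of 0.11 to 0.16 in parental cells, -0.22 to -0.14 in resistant cells, -0.19 to -0.11 off the drug, -0.50 to -0.44 on the drug and -0.37 to -0.29 for the difference.

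The small counts were less stable. Those higher in resistant cells on the drug were 4 with no filter, 1 with DESeq2's Wald test, 1 to 4 without a library and 1 without the overlapped members (chosen after seeing the data). The number higher off the drug was 7 after the length and GC correction and 1 to 5 without a library. Without the overlapped members 2 were lower in parental cells, 1 was higher on the drug and 1 had a difference above 0. With protein-coding reads as the total, shares were 7.13%, 7.36%, 6.0% and 5.43%.

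After the length and GC correction RPL12 was at 0.0852 in parental cells, and off the drug RPS27 was at 0.0436, RPL34 at 0.0850, RPL7L1 at -0.0533, RPL39 at 0.13, RPL30 at 0.14 and RPS25 at 0.0040. Pseudogene reads turned RPL36A to -0.0814 on the drug. The cause was not tested.

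Replicate numbers are shared across groups but did not pair the libraries (correlations of deviations -0.058 to 0.027). With the number as a block, 66 members were higher and 4 lower in parental cells, and counts elsewhere were 72, 58, 78 and 75 lower, as without it. With the block and the length and GC correction, 7 were higher off the drug, RPL12 was at 0.0852 in parental cells, and RPS27 (0.0435), RPL34 (0.0849), RPL39 (0.13), RPL30 (0.14) and RPS25 (0.0040) kept the turned sign.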

Other observations

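Some further lists bear on how cells control ribosome production. Of all tested genes 31.6% rose and 26.6% fell in parental cells on indisulam, and 24.9% rose and 25.8% fell in resistant cells. Of 15 genes of RNA polymerase I and ribosomal RNA transcription, 10 rose and 3 fell in parental cells on indisulam, and 2 rose and 7 fell in resistant cells. MYC, which drives many ribosome genes, fell in both lines (log2 fold changes of -0.10 ± 0.03 in parental and -0.47 ± 0.03 in resistant cells). POLR1E, a polymerase I subunit, rose in parental cells (0.35 ± 0.03) and was lower in the resistant line on the drug (-0.78 ± 0.03). Among 11 regulators of TOP messenger RNAs, 8 rose and 1 fell in parental cells, and 3 rose (27.3%, near the share over all genes) and 5 fell in resistant cells. RPS6KB1, an S6 kinase, rose in both (0.48 ± 0.03 and 0.34 ± 0.03), and EIF4EBP1, a repressor of cap-dependent translation, fell in resistant cells (-0.32 ± 0.04).

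Of 11 dedicated chaperones and importers of ribosomal proteins, 7 rose and 3 fell in parental cells, and none rose and 9 fell in resistant cells. PDCD2, a chaperone of RPS2, fell in both (-0.32 ± 0.04 and -0.51 ± 0.04). In the list of 5 genes of the 5S particle and its p53 link, which holds RPL5 and RPL11, 4 rose and 1 fell in parental cells, and 3 rose and 2 fell in resistant cells, with a median log2 fold change of 0.12. CDKN1A, a p53 target, was higher in the resistant line off (1.08 ± 0.04) and on the drug (1.21 ± 0.04). MDM2 was lower in the resistant line off the drug (-0.22 ± 0.03) and was also called lower on it. All calls are from the edgeR fit described above, and no list was tested as a whole.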
